A study of Mus musculus with 12 samples.

Results

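The RNA-seq libraries of a study of mouse embryonic stem cells were examined here for the mRNA response to siRNAs against Krr1, across genes and functions other than ribosomes, pluripotency and p53. The members are all 6 RNA-seq libraries of the study's 12 libraries: 3 control libraries named siGFP, siNC and Lipo, and 3 knockdown libraries called siKrr1 A, siKrr1 C and siKrr1 D. The other 6 libraries, ribosome footprints of the same conditions, were not used here. R1 cells, a mouse embryonic stem cell line, were kept on 0.1% gelatin with 1000 U/mL LIF, the cytokine that holds such cells undifferentiated, and were lysed 48 h after transfection. Both groups were grown and transfected in the same way, and by the series' design each library stands for a different siRNA, although the name Lipo states none. RNA was depleted of ribosomal RNA, cut to fragments of 40 to 60 nt and read as single 50-base reads. The study's title places Krr1 in the upkeep of pluripotency, and the comparison asks which mRNAs differ in level once Krr1 is reduced.

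Krr1 is a nucleolar protein with a KH-type RNA-binding fold. It belongs to the small-subunit processome, the large particle in which the precursor of 18S ribosomal RNA is folded and first cut. Loss of such assembly factors is best known for activating p53 through ribosomal proteins that find no place in a subunit. Embryonic stem cells grow as compact epithelial colonies, joined by E-cadherin, tight junctions and gap junctions and standing on a laminin-rich matrix, and they import and synthesise amino acids at a high rate.

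Counts on genes ran from 31318772 to 39670139 per library, 66.4% to 68.6% of the unique alignments. The labels do not state that the samples came from separate cultures, so all p-values measure the spread between these samples, which may be technical in part. Levels are library-scaled counts (CPM) after TMM scaling, relative to all other mRNAs of the library. A lower level can therefore mean fewer cells of a type or less RNA per cell, which cannot be told apart in bulk RNA. The cell type label was checked against defining markers. The 8 stem cell markers summed to 7670 to 7810 CPM in the controls and 6180 to 7400 CPM with the Krr1 siRNAs, with 3 of the 8 called lower. Of 7 fibroblast markers, Col3a1, Postn and Lum were at 0 in all 6 libraries, and the sum was 2.94 to 4.20 CPM in controls and 2.03 to 3.85 CPM in knockdown libraries. The 4 trophectoderm markers summed to 1.43 to 2.60 and 2.22 to 4.08 CPM, the 5 primitive endoderm markers to 2.84 to 3.55 and 2.39 to 2.89 CPM, and the 4 mesoderm markers to 13.2 to 15.2 and 13.8 to 22.0 CPM. The 3 blood markers found by symbol summed to at most 0.761 CPM, and the 3 endothelial markers to 31.3 to 49.0 and 30.2 to 45.9 CPM. Nearly all of the endothelial sum was Pecam1, at 933 to 1902 counts per library, while Cdh5 had at most 5 counts and Tie1 at most 26. The 4 neural markers summed to 134 to 147 CPM in controls and 76.5 to 93.8 CPM in knockdown libraries, nearly all of it the tubulin gene Tubb3. Of these 4, Tubb3 was called lower and Neurod1 higher. The part of such cells in the results was not tested.

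Krr1 itself (chromosome 10, 111972695 to 111988430, RefSeq GRCm38.p6, the build also called mm10; protein-coding) stood at 155, 151 and 160.3 CPM in the controls and 33.7, 58.0 and 64.6 CPM with the Krr1 siRNAs. All 3 knockdown libraries lay far below the controls, siKrr1 A lowest at 21.7% of the control mean. The log2 fold change was -1.58 ± 0.18 (SE, n = 3 per group; adjusted p = 0.00228, from the quasi-likelihood test of edgeR with Benjamini-Hochberg adjustment). CPM values are given below in this order, siGFP, siNC and Lipo for the controls and siKrr1 A, C and D for the knockdown, and each ± on a log2 fold change is its standard error with 3 libraries per group.

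The response was broad and mostly of modest size. Of 14038 genes tested, 378 were higher and 296 lower with the Krr1 siRNAs at an edgeR adjusted p under 0.05, together 4.8% of those tested, 2.69% higher and 2.11% lower. The median log2 fold change of the called genes was 0.63 for those higher and -0.61 for those lower. A log2 change smaller than 0.5 accounted for 128 of the higher and 102 of the lower genes, and 78 were higher (0.556% of those tested) and 63 lower (0.449%) by more than 2-fold. In all 674 called genes the 3 knockdown libraries did not overlap the 3 controls, as was so for 27% of all genes tested. Protein-coding genes were called at 5.04% of 12379, and long noncoding RNAs at 1.47% of 341, with 1 higher and 4 lower. Among 102 entries for snoRNAs, the small guides of ribosomal RNA modification, 8 were lower by edgeR, while entries so short hold few fragments of 40 to 60 nt and lie in the introns of host genes.

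**Figure D1:**
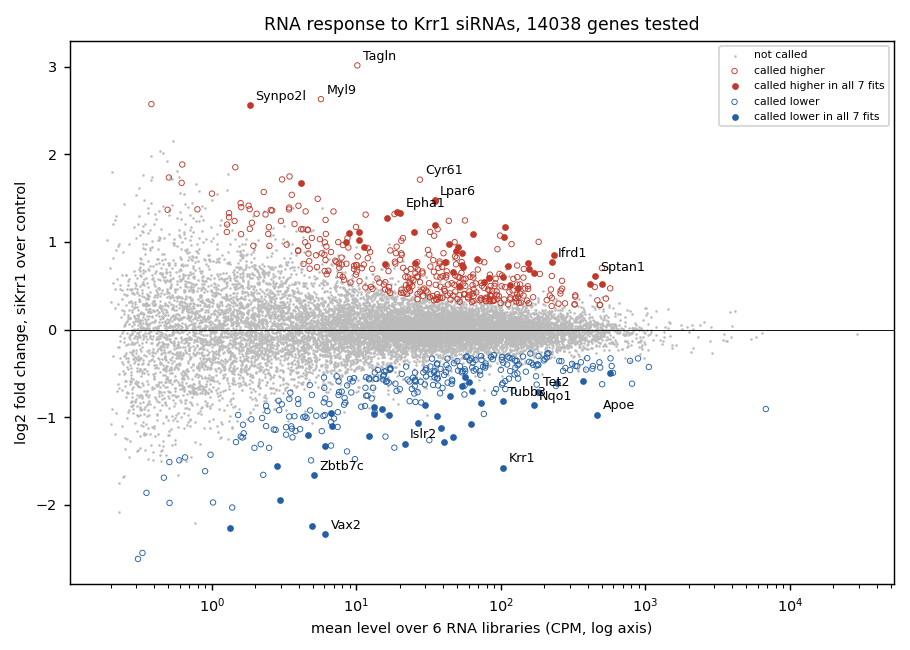
Each point is 1 of 14038 tested genes. The horizontal axis is the mean CPM over the 6 RNA libraries on a log axis, the vertical axis the log2 fold change of siKrr1 over control; grey points were not called, open red and blue circles were called higher (378) or lower (296), and filled circles kept the call with any 1 library left out. Called genes are spread over nearly the whole range of levels, and most lie within 2-fold of the controls.

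How many genes were called depended on the libraries, and the controls in particular. Leaving out siGFP gave 66 higher and 57 lower genes, leaving out siNC 78 and 60, and leaving out Lipo 63 and 51. Leaving out siKrr1 A gave 174 and 133, siKrr1 C 759 and 539, and siKrr1 D 222 and 166. The knockdown library siKrr1 C was the nearest of the 3 to the controls for 279 of the 378 higher and 213 of the 296 lower genes. Its median distance from the control mean over the higher genes was 0.42 on the log2 scale, against 0.76 in siKrr1 A and 0.65 in siKrr1 D. Over the lower genes it was -0.45, against -0.75 in siKrr1 A and -0.66 in siKrr1 D. A core of 80 genes, 0.57% of those tested, was called with all 6 libraries and in each of the 6 fits without 1 of them: 43 higher (0.306%) and 37 lower (0.264%). All 80 were also called by DESeq2, by limma voom and with another scaling in edgeR. By median, siKrr1 C was the nearest to the controls in the core too. Its core medians were 0.72 against 0.96 and 0.85 for higher and -0.82 against -1.12 and -1.07 for lower genes. The text leads with these genes; any other named gene comes with the highest adjusted p that edgeR gave in the fits without 1 library, written as that p and the library left out.

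**Figure D2:**
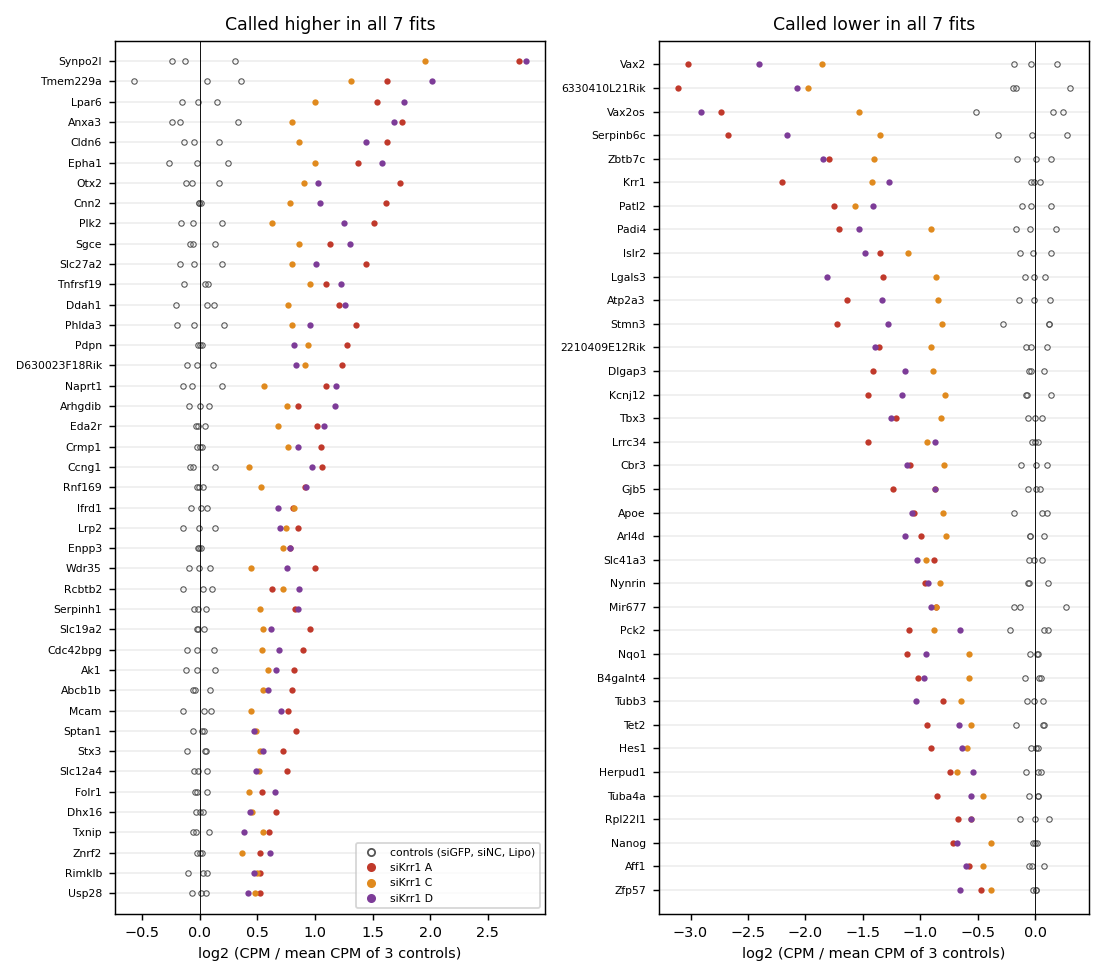
Log2 ratio of the CPM in each library to the mean of the 3 controls, for genes called higher (left) and lower (right) in the fit of all 6 libraries and in the 6 fits without 1 library. Open circles are the 3 controls and coloured circles siKrr1 A, C and D. The knockdown circles of each gene stay clear of the controls, as they do in all 674 called genes. The orange siKrr1 C circle is often the innermost.

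The upper core included genes for proteins of the cell surface and of cell contacts, grouped here after their values were seen. Lpar6, a receptor for lysophosphatidic acid (chromosome 14, 73237891 to 73240358, overlapping Rb1), stood at 20.4, 16.6 and 18.3 CPM in the controls and 53.5, 37.0 and 63.1 CPM with the Krr1 siRNAs, a log2 fold change of 1.47 ± 0.17 (edgeR adjusted p = 0.00228). siKrr1 D was highest and siKrr1 C lowest of the knockdown libraries. Anxa3, an annexin that binds membrane phospholipids in the presence of calcium, stood at 23.4, 15.7 and 16.5 CPM in the controls and 62.4, 32.4 and 59.5 CPM with the Krr1 siRNAs, a change of 1.47 ± 0.23. Cldn6, a tight-junction claudin of early epithelia (chromosome 17, 23679348 to 23682446), stood at 12.2, 10.5 and 9.89 CPM in the controls and 33.5, 19.7 and 29.4 CPM with the Krr1 siRNAs, a change of 1.34 ± 0.18. In both genes siKrr1 C showed the smallest rise. Epha1, an ephrin receptor tyrosine kinase, stood at 13.5, 11.2 and 9.47 CPM in the controls and 29.5, 22.8 and 34.1 CPM with the Krr1 siRNAs (1.33 ± 0.16), with siKrr1 D highest. Epha1 overlaps Zyx, which was also called higher, and how reads of overlapping genes were divided is not given in the sources used here. The mucin-like glycoprotein Pdpn (podoplanin, 1.02), the adhesion molecule Mcam (0.65), the TNF receptor family member Tnfrsf19 (1.10) and epsilon-sarcoglycan Sgce (1.11) rose too. The endocytic receptor Lrp2 (megalin, 0.77), the folate receptor Folr1 (0.54) and the ectonucleotidase Enpp3 (0.76) were higher as well.

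The largest rise of the core was in an actin-associated gene, and several core genes serve the cytoskeleton or membrane traffic. Synpo2l, a relative of synaptopodin best known from heart muscle (chromosome 14, 20658945 to 20668354), stood at 0.656, 0.487 and 0.451 CPM in the controls and 3.63, 2.06 and 3.77 CPM with the Krr1 siRNAs, a change of 2.56 ± 0.31 (edgeR adjusted p = 0.00312). Its level stayed below 4 CPM in each library. Cnn2, a calponin that binds actin, stood at 21.5, 21.2 and 21.3 CPM in the controls and 65.2, 36.6 and 43.9 CPM with the Krr1 siRNAs (1.19 ± 0.17), with siKrr1 A far above the other 2 knockdown libraries. Sptan1, the non-erythroid alpha-spectrin of the membrane skeleton, was among the abundant ones, at 359.8, 364 and 342 CPM in the controls and 634, 497 and 492 CPM with the Krr1 siRNAs (0.61 ± 0.10). Arhgdib (0.94), the myosin-activating kinase Cdc42bpg (0.72), the collapsin response protein Crmp1 (0.89), the fusion protein Stx3 (syntaxin 3, 0.60) and the ciliary transport subunit Wdr35 (0.75) rose as well.

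Another part of the upper core were enzymes and transporters. Ifrd1, a transcriptional co-regulator, stood at 159.6, 169 and 176 CPM in the controls and 295, 297 and 269 CPM with the Krr1 siRNAs (0.77 ± 0.07, edgeR adjusted p = 0.00169). The 3 knockdown libraries lay close together. Slc27a2, which takes up and activates long-chain fatty acids, changed by 1.11, and Ddah1, which degrades methylated arginine, by 1.09. Naprt1, which makes NAD from nicotinic acid, changed by 0.97, the thiamine transporter Slc19a2 by 0.72, the adenylate kinase Ak1 by 0.69, the drug exporter Abcb1b by 0.65 and the potassium-chloride cotransporter Slc12a4 by 0.59. Rnf169, which binds ubiquitylated chromatin at DNA breaks (0.80), the ubiquitin protease Usp28 (0.48), the ubiquitin ligase Znrf2 (0.50) and the spliceosomal helicase Dhx16 (0.52) also rose. Rimklb (0.50), Rcbtb2 (0.74) and Tmem229a (1.68) rose too, beside Txnip, described with the redox genes. Ccng1, Eda2r, Phlda3, Plk2 and Otx2 were in the core as well and belong to the p53 and pluripotency themes, which are not described here.

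The lower core included genes known from the nervous system, grouped here after their values were seen. Other neural genes rose, as given with the neural list below. Vax2, a homeobox gene that patterns the ventral eye (chromosome 6, 83711239 to 83738313), stood at 8.97, 11.7 and 9.92 CPM in the controls and 1.25, 2.81 and 1.93 CPM with the Krr1 siRNAs, a log2 fold change of -2.34 ± 0.24 (edgeR adjusted p = 0.00169). The knockdown libraries lay well below the controls, and siKrr1 A was lowest. The transcript Vax2os from the overlapping opposite-strand locus changed by -2.24 ± 0.33. The strand setting of the counting is not given in the sources used here, so reads of the pair cannot be told apart. Islr2, a membrane protein of growing axons (chromosome 9, 58196297 to 58204319), stood at 33.8, 30.3 and 28.0 CPM in the controls and 12.1, 14.3 and 11.004 CPM with the Krr1 siRNAs (-1.30 ± 0.12). Dlgap3, a scaffold of the postsynaptic density, stood at 56.5, 51.6 and 52.0 CPM in the controls and 20.1, 28.8 and 24.3 CPM with the Krr1 siRNAs (-1.13 ± 0.12). Both fell to a similar extent in the 3 knockdown libraries. Stmn3, a stathmin that destabilises microtubules, changed by -1.22, the potassium channel Kcnj12 by -1.10 and the neuronal beta-tubulin Tubb3 by -0.82 ± 0.10, at 126, 139 and 131 CPM in the controls and 76.0, 84.3 and 64.4 CPM with the Krr1 siRNAs. Tubulin genes have near-identical copies, so reads of single members are uncertain. The sugar transferase B4galnt4 (-0.84) fell too.

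The other genes of the lower core were mixed in function. Apoe, the lipid-carrying apolipoprotein E (chromosome 7, 19696244 to 19701310), stood at 542, 663 and 645 CPM in the controls and 297, 353 and 293 CPM with the Krr1 siRNAs (-0.97 ± 0.10, edgeR adjusted p = 0.00169) and had the largest drop in CPM of the core. The highest knockdown library was siKrr1 C. Atp2a3, a calcium pump of the endoplasmic reticulum, stood at 71.9, 65.0 and 59.6 CPM in the controls and 21.1, 36.6 and 25.9 CPM with the Krr1 siRNAs (-1.23 ± 0.16). Lgals3, the sugar-binding galectin-3, stood at 60.6, 53.5 and 56.7 CPM in the controls and 22.8, 31.4 and 16.2 CPM with the Krr1 siRNAs (-1.28 ± 0.18), with siKrr1 D lowest. Padi4, which converts arginine in proteins to citrulline, changed by -1.33. Zbtb7c, a zinc-finger protein, stood at 8.47, 6.89 and 7.75 CPM in the controls and 2.22, 2.92 and 2.14 CPM with the Krr1 siRNAs (-1.66 ± 0.18). The RNA-binding protein Patl2 changed by -1.56, the serpin Serpinb6c by -1.94, Lrrc34 by -1.06, the small GTPase Arl4d by -0.96, the magnesium transporter Slc41a3 by -0.95, Nynrin by -0.90 and the elongation factor partner Aff1 by -0.54. Lrrc34 overlaps Lrriq4, which was also called lower, and reads of this pair cannot be told apart either. The microRNA entry Mir677 changed by -0.88 and lies within Atp5b, so its reads of 40 to 60 nt may be those of the host. Nanog, Tbx3 and Rpl22l1, of the pluripotency and ribosome themes, were also in this core, and 3 of the 80 core genes carry predicted-gene names and are only counted.

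Beyond single genes, 48 functional lists with 1845 tested genes were counted against the background of 4.8% called. Of the 674 called genes, 165 were in a list and 509 in none. In 40 lists at least 1 member was called. No list was tested as a set.

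**Figure D3:**
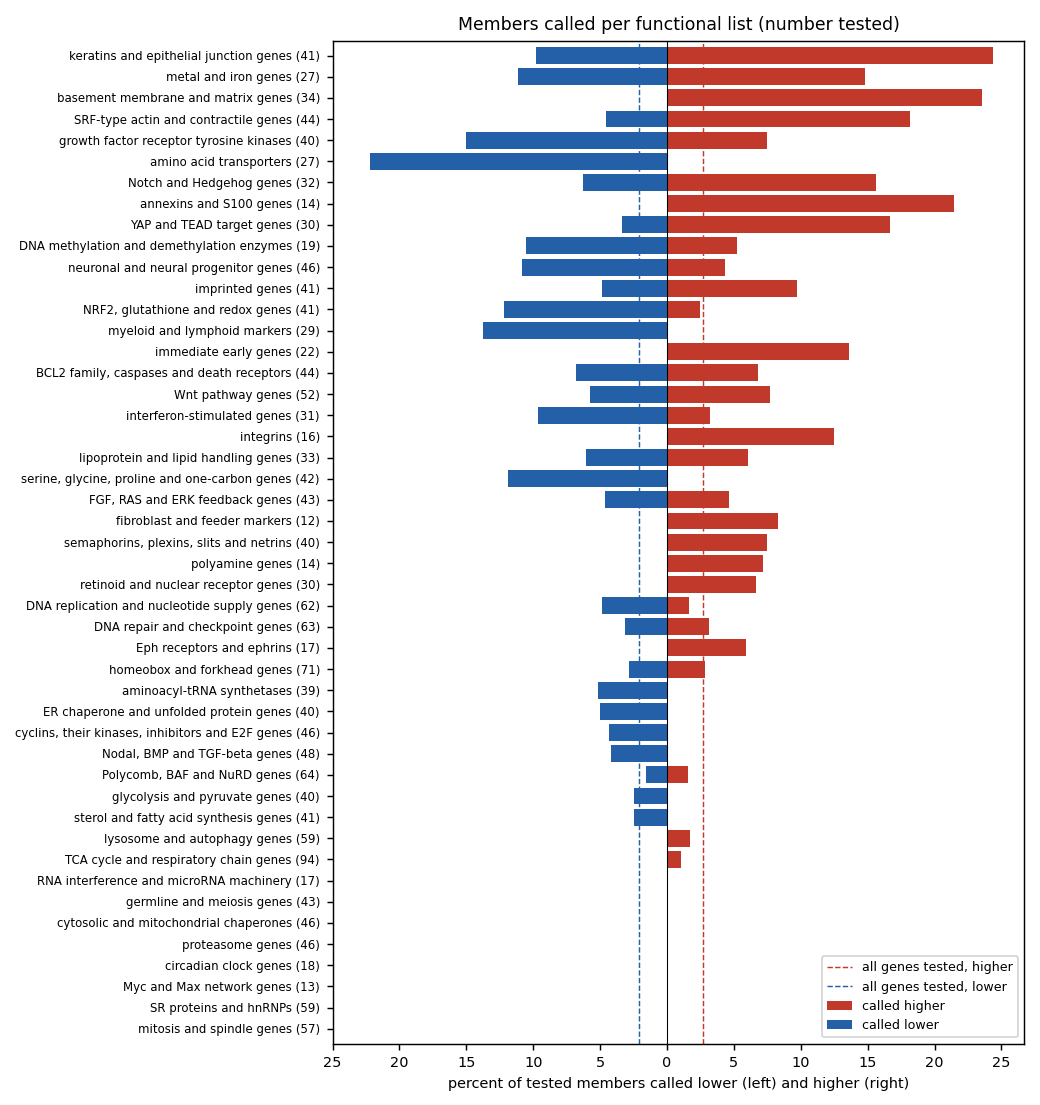
Percent of the tested members of functional lists that were called higher (red, to the right) or lower (blue, to the left) with the Krr1 siRNAs; the number tested is in brackets and the dashed lines mark the shares over all genes tested, 2.69% and 2.11%. Junction, matrix, contractile and annexin genes extend to the right, amino acid transporters and receptor tyrosine kinase genes more to the left, and the lists at the bottom hold no called member.

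Actin and contractile genes of the kind that serum response factor (SRF) is known to drive were higher in part. Of 44 tested, 8 rose and 2 fell by edgeR (22.7% called), and 6 rose and 2 fell by limma voom. The median log2 fold change was 0.27, against -0.001 over all genes. The number higher was 3, 1 and 1 with siGFP, siNC or Lipo left out and 5, 15 and 8 with siKrr1 A, C or D left out. Cnn2, described above, was the member of the core. Tagln, a smooth-muscle actin-binding protein, stood at 2.83, 2.00 and 1.83 CPM in the controls and 41.9, 7.29 and 5.25 CPM with the Krr1 siRNAs (3.01 ± 0.67). Myl9, the regulatory light chain of non-muscle and smooth-muscle myosin, stood at 1.495, 1.64 and 1.58 CPM in the controls and 20.3, 4.21 and 4.96 CPM with the Krr1 siRNAs (2.63 ± 0.53). In both, siKrr1 A held most of the rise: without it the changes were 1.49 and 1.54. Vcl, the focal adhesion protein vinculin, was more even, at 71.8, 63.3 and 64.9 CPM in the controls and 116, 91.8 and 93.1 CPM with the Krr1 siRNAs (0.59 ± 0.10). Zyx, zyxin of the same adhesions (1.09), the actin binders Cald1 (0.75) and Tpm4 (0.58) and the non-muscle myosin heavy chain Myh9 (0.36) rose, while Tagln2 (-0.36) and Csrp2 (-0.37) fell. Their adjusted p with 1 library left out reached 0.118 without siGFP, 0.109 without siGFP, 0.0591 without Lipo, 0.0676 without Lipo, 0.108 without Lipo, 0.159 without siGFP, 0.13 without Lipo, 0.136 without Lipo and 0.161 without Lipo, in the order named.

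A promoter scan gives the sequence context of this list. SRF binds the CArG box, a stretch of A and T bases between a pair of C and a pair of G. An exact CArG box was searched within 250 bases before to 50 after the RefSeq start. It lay in 11 of the 38 list members with a promoter sequence (28.9%). Of all tested genes with such a sequence it lay in 160 of 10191 (1.57%), and in 6 of the 280 called higher (2.14%). Of 7 list members called higher with a sequence, 3 held one, and their windows are shown with the box in capitals. They are Cnn2 (chr10:79988504-79988593, plus strand), Myl9 (chr2:156775263-156775352, plus strand) and Vcl (chr14:20929148-20929220, plus strand), all RefSeq GRCm38.p6, 5′ to 3′ along the gene.
Cnn2: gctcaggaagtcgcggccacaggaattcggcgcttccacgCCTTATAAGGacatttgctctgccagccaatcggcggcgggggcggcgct
Myl9: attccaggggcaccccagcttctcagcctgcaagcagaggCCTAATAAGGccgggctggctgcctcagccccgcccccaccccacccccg
Vcl: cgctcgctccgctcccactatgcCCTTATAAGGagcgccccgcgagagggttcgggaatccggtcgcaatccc
The first base of the box lies 56 bases before the start in Cnn2, 161 in Myl9 and 227 in Vcl. A match of letters does not show that a factor binds there. Over all genes called higher the share with a box was near that of all genes.

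Genes known as targets of YAP and its DNA-binding partner TEAD, the effectors of the Hippo pathway that read cell density and tension, were mostly not called. Of 30 tested, 5 rose and 1 fell (20% called; median 0.28, with 19 above 0), and the number higher was 0, 2 and 3 with siGFP, siNC or Lipo left out and 5, 8 and 4 with siKrr1 A, C or D left out. Cyr61, a secreted integrin ligand, stood at 13.9, 12.5 and 12.3 CPM in the controls and 62.7, 21.1 and 43.0 CPM with the Krr1 siRNAs (1.71 ± 0.29). Ctgf, of the same family, stood at 7.37, 6.10 and 6.51 CPM in the controls and 22.9, 10.3 and 16.5 CPM with the Krr1 siRNAs (1.31 ± 0.24). In both, siKrr1 C was the lowest knockdown library. Amotl2, which holds YAP at junctions, stood at 57.6, 54.3 and 59.0 CPM in the controls and 114, 75.3 and 102 CPM with the Krr1 siRNAs (0.77 ± 0.13), and Lats2, the kinase that inactivates YAP, at 7.42, 7.23 and 8.17 CPM in the controls and 13.3, 11.5 and 13.1 CPM with the Krr1 siRNAs (0.73 ± 0.12). The phosphatase Ptpn14 (0.75) rose and the ectonucleotidase Nt5e (-0.45) fell. In the fits without 1 library the edgeR adjusted p reached 0.0699 without siGFP, 0.0699 without siGFP, 0.0648 without siGFP, 0.0648 without siGFP, 0.0976 without Lipo and 0.183 without Lipo, respectively. The TEAD element GGAATG was searched on both strands of the same windows. Among genes with a promoter sequence it was found in 14.6% of 10191 and in 11 of 21 list members. It was in 55 of 280 such genes called higher (19.6%), against 39 of 216 called lower (18.1%). Amotl2 (chr9:102717699-102717784, plus strand) and Ptpn14 (chr1:189728082-189728167, plus strand) carry it before the start, shown in capitals as its reverse complement.
Amotl2: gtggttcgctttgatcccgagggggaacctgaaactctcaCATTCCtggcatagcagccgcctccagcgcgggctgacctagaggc
Ptpn14: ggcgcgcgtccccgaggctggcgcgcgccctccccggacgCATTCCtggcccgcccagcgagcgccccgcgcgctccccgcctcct
Lats2 holds it after the start. With 6 letters the element is common, as the share over all genes shows.

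In the fit of all 6 libraries, matrix genes rose without exception among those called. Of 34 basement membrane and matrix genes, 8 rose and 0 fell by edgeR (23.5% called; median 0.25), and 29 had a log2 fold change above 0. By DESeq2, by limma voom and at an unadjusted p under 0.05 the number lower was 0 as well. The number higher was 2, 4 and 3 with siGFP, siNC or Lipo left out and 4, 10 and 6 with siKrr1 A, C or D left out. The number lower was 1 with siKrr1 C left out and 0 with any other library left out. Serpinh1, the collagen chaperone HSP47, was in the core, at 40.2, 42.2 and 39.3 CPM in the controls and 71.9, 58.2 and 73.3 CPM with the Krr1 siRNAs (0.74 ± 0.10). Sparc, a collagen-binding matricellular protein, was the most abundant, at 224, 221 and 225 CPM in the controls and 321, 271 and 334 CPM with the Krr1 siRNAs (0.47 ± 0.08). Tinagl1, a laminin-binding protein, stood at 3.93, 4.20 and 3.64 CPM in the controls and 9.71, 6.97 and 13.3 CPM with the Krr1 siRNAs (1.35 ± 0.21). The collagen-modifying enzymes Plod2 (0.60) and Bmp1 (0.63), the laminin chain Lamb1 (0.45) and collagen IV chain Col4a1 (0.48) rose by less. On leaving out 1 library the edgeR adjusted p reached 0.068 without siGFP, 0.0632 without siGFP, 0.111 without Lipo, 0.155 without Lipo, 0.134 without Lipo and 0.134 without Lipo. Of 16 integrins, the receptors for such matrix, Itgav (0.64) and Itgb1 (0.39) rose (12.5%; 0.119 without Lipo and 0.133 without siGFP), while the median of the list was 0. Of 12 tested fibroblast and feeder markers Col5a2 rose (1.36; 0.125 without siNC), and as given above 3 defining fibroblast markers were at 0.

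Epithelial junction genes had the largest share of calls of any list, in both directions. Of 41 tested keratin and junction genes 10 rose and 4 fell (34.1% called; median 0.25). The number higher was 2, 2 and 2 with siGFP, siNC or Lipo left out and 7, 13 and 9 with siKrr1 A, C or D left out, and the number lower 2, 2 and 2 with siGFP, siNC or Lipo left out and 2, 4 and 2 with siKrr1 A, C or D left out. The junction proteins that rose were Cldn6, the desmosome-associated Perp (72.9, 58.4 and 60.0 CPM in the controls and 177, 91.1 and 134 CPM with the Krr1 siRNAs; 1.07 ± 0.19), the P-cadherin Cdh3 (28.2, 36.6 and 31.2 CPM in the controls and 91.7, 50.8 and 49.5 CPM with the Krr1 siRNAs; 1.00 ± 0.21), the adhesion molecule Epcam (201, 223 and 238 CPM in the controls and 314, 275 and 310.5 CPM with the Krr1 siRNAs; 0.44 ± 0.08) and the tight-junction protein F11r (0.33). Perp is also a p53 target. Cdh3 rested most on siKrr1 A, and without it the change was 0.65. The epithelial splicing regulator Esrp1 (0.78), the epithelial transcription factor Grhl2 (0.56) and the simple-epithelium keratins Krt18 (0.46) and Krt7 (2.57) rose, Krt7 from at most 0.128 CPM in the controls. The keratins Krt17 (-0.87) and Krt42 (-0.59) fell. With 1 library left out the edgeR adjusted p reached 0.0591 without Lipo, 0.118 without siGFP, 0.0776 without siGFP, 0.12 without Lipo, 0.103 without Lipo, 0.129 without siNC, 0.17 without Lipo, 0.0895 without Lipo, 0.114 without Lipo and 0.121 without Lipo.

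The gap junction genes of this list split. Connexins form channels that pass ions and small molecules between neighbouring cells. Gjb5 (chromosome 4, 127354809 to 127358164), in the lower core, stood at 22.7, 23.3 and 21.7 CPM in the controls and 9.58, 12.3 and 12.3 CPM with the Krr1 siRNAs (-0.98 ± 0.12). Gja1, connexin 43, the main connexin of stem cells, rose, standing at 124, 105 and 103 CPM in the controls and 168, 152 and 215 CPM with the Krr1 siRNAs (0.69 ± 0.12, edgeR adjusted p = 0.0123, 0.0648 without Lipo). Both genes were separated from the controls in all knockdown libraries, as were all 674 called genes.

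**Figure D4:**
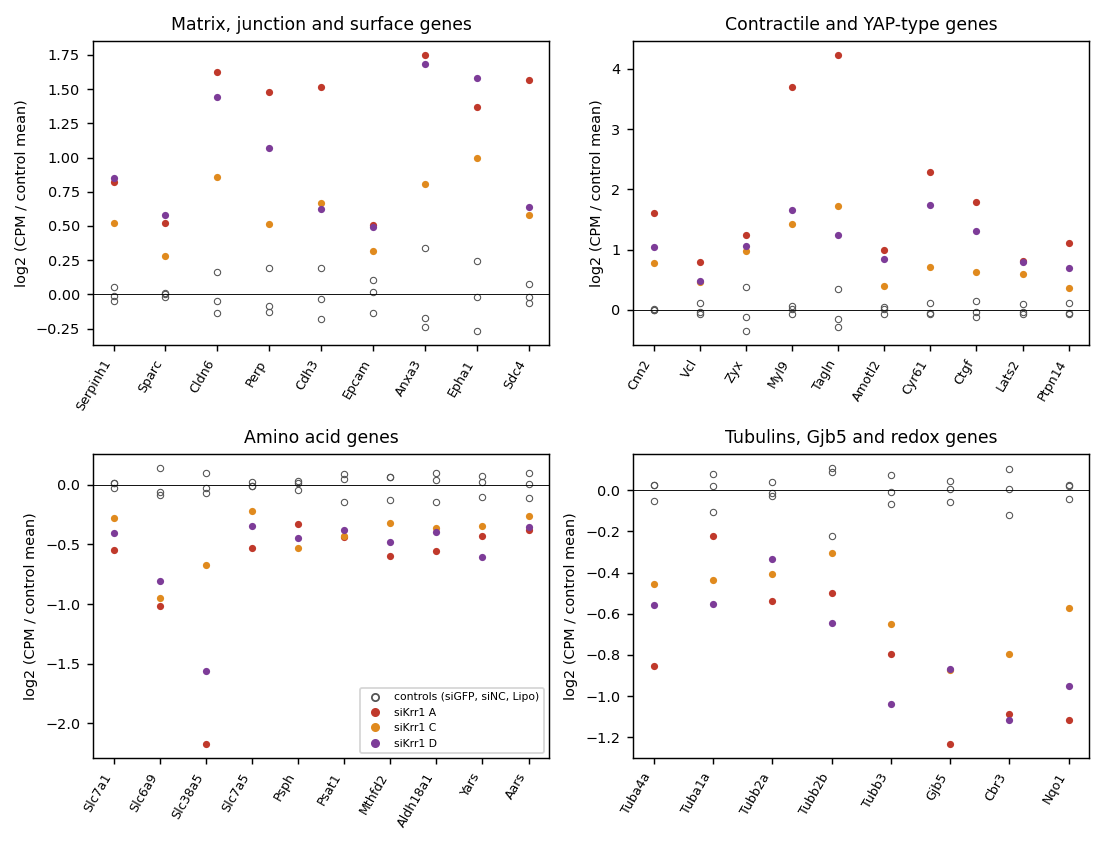
Log2 ratio of the CPM in each library to the mean of the 3 controls for genes of 4 groups; open circles are the controls and coloured circles siKrr1 A, C and D. Tagln and Myl9 stand out through siKrr1 A, while the amino acid genes lie about 0.2 to 0.6 below the controls apart from Slc6a9 and Slc38a5.

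Ligands, receptors and targets of signalling pathways were called in both directions. In the Notch pathway, in which ligands on one cell activate receptors on the next, 5 of 32 Notch and Hedgehog genes rose and 2 fell (21.9%). The ligands Jag1 (13.3, 13.9 and 14.01 CPM in the controls and 35.6, 21.8 and 27.8 CPM with the Krr1 siRNAs; 1.04 ± 0.16) and Jag2 (0.91), the receptor Notch3 (1.11, and 0.71 without siKrr1 A), the receptor-modifying enzyme Lfng (1.35) and the feedback gene Nrarp (0.67) were higher. Hes1, the best-known Notch target, was lower and in the core, at 80.2, 79.5 and 76.9 CPM in the controls and 42.1, 52.2 and 50.9 CPM with the Krr1 siRNAs (-0.70 ± 0.09, edgeR adjusted p = 0.00352). Gli2 of the Hedgehog pathway (-0.59) was lower too, outside the core. In the fits without 1 library the edgeR adjusted p reached 0.0505 without siGFP, 0.0911 without siGFP, 0.0886 without siGFP, 0.0911 without siGFP, 0.134 without Lipo and 0.165 without siGFP. Jag1 missed the core by the smallest margin of these.

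In the Wnt pathway 4 of 52 genes rose and 3 fell (13.5%). Wls, which carries Wnt proteins to the surface, stood at 5.17, 5.64 and 6.37 CPM in the controls and 10.5, 9.41 and 10.4 CPM with the Krr1 siRNAs (0.82 ± 0.14), and Lef1 (1.41), Wnt7b (0.90) and the Wnt-binding Sfrp2 (0.87) rose, while Wnt11 (-0.99), the receptor Fzd5 (-0.32) and Sfrp1 (-0.64) fell. The adjusted p with 1 library left out reached 0.0646 without siGFP, 0.115 without Lipo, 0.175 without Lipo, 0.125 without siNC, 0.164 without siGFP, 0.172 without Lipo and 0.135 without siNC. Among 40 growth factor receptor kinases and their ligands 3 rose and 6 fell (22.5%). The VEGF receptor Kdr (3.41, 2.38 and 2.73 CPM in the controls and 5.69, 5.98 and 12.3 CPM with the Krr1 siRNAs; 1.49 ± 0.29), Ptk7 (0.56) and the collagen receptor Ddr1 (0.93) were higher. The ligands Pdgfa (42.5, 41.6 and 40.1 CPM in the controls and 24.1, 32.3 and 28.7 CPM with the Krr1 siRNAs; -0.55 ± 0.11), Pdgfc (-0.71) and Hbegf (-0.35) and the receptors Igf1r (-0.33), Erbb3 (-0.49) and Ntrk3 (-0.85) were lower. On leaving out 1 library these reached 0.0751 without Lipo, 0.134 without Lipo, 0.162 without siGFP, 0.0984 without siGFP, 0.0977 without Lipo, 0.151 without siNC, 0.186 without Lipo, 0.173 without siGFP and 0.179 without siNC. 

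In further lists of signalling and related genes the share called ran from 4.17% to 21.4%, against 4.8% of all genes tested. Of 43 FGF and ERK feedback genes 2 rose and 2 fell (9.3%): the FGF carrier Fgfbp1 (30.8, 33.2 and 36.5 CPM in the controls and 119, 52.0 and 68.1 CPM with the Krr1 siRNAs; 1.25 ± 0.23) and the heparan sulfate proteoglycan Sdc4 (1.00, and 0.61 without siKrr1 A) were higher, the ERK feedback inhibitor Spry4 (-0.45) and Fgf15 (-0.76) lower. Of 48 Nodal, BMP and TGF-beta genes 2 fell (4.17%), the activin subunit Inhbb (109, 95.5 and 99.3 CPM in the controls and 34.8, 76.5 and 44.0 CPM with the Krr1 siRNAs; -0.96 ± 0.22) and the corepressor Tgif1 (-0.30). Of 22 immediate early genes Klf6 (0.59), Btg2 (0.50) and Csrnp1 (0.44) rose (13.6%), while limma voom called 0 in either direction. Of 40 semaphorin and netrin guidance genes Sema3e (0.95), Sema3c (1.37, and 0.91 without siKrr1 A) and Nrp2 (0.51) rose (7.5%). Of 30 retinoid and nuclear receptor genes Nr6a1 (0.38) and Nr2f6 (0.34) rose (6.67%), of 14 annexin and S100 genes Anxa3, Anxa2 (0.60) and S100a6 (0.62) rose (21.4%), and of 17 Eph and ephrin genes Epha1 did (5.88%). Outside the core members, each of these calls was lost in some fit without 1 library, the highest edgeR adjusted p running from 0.0956 without siGFP for Fgfbp1 to 0.186 without Lipo for Csrnp1.

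In the fit of all 6 libraries, amino acid supply genes were lower where they were called, while most were not called. Of 27 amino acid transporters 6 fell (22.2%), of 42 genes of serine, glycine, proline and one-carbon metabolism 5 fell (11.9%), and of 39 aminoacyl-tRNA synthetases 2 fell (5.13%, near the background). The median log2 fold changes of the lists were -0.04, -0.12 and -0.08, with 13, 13 and 12 members above 0. With all 6 libraries edgeR called 0 members higher in these 3 lists. It called 1 transporter higher with siKrr1 A left out and 1 with siKrr1 C left out. At an unadjusted p under 0.05 there were 6 higher transporters, 0 serine and one-carbon genes and 2 synthetases, and DESeq2 called 3, 0 and 0 higher, limma voom 0 in each. The number of transporters lower was 0, 0 and 0 with siGFP, siNC or Lipo left out and 2, 6 and 3 with siKrr1 A, C or D left out, and that of serine and one-carbon genes 3, 0 and 0 with siGFP, siNC or Lipo left out and 3, 8 and 4 with siKrr1 A, C or D left out. The arginine and lysine carrier Slc7a1 stood at 147, 150.3 and 151 CPM in the controls and 102, 123 and 112 CPM with the Krr1 siRNAs (-0.41 ± 0.08), and the leucine carrier Slc7a5 at 294, 301 and 294 CPM in the controls and 205, 254 and 233 CPM with the Krr1 siRNAs (-0.36 ± 0.08). These are small changes against an even control level. The glutamine carrier Slc38a5 changed most, at 10.3, 9.38 and 9.13 CPM in the controls and 2.12, 6.03 and 3.25 CPM with the Krr1 siRNAs (-1.33 ± 0.28), with siKrr1 A lowest. The glycine carrier Slc6a9 (-0.92), the creatine carrier Slc6a8 (-0.68) and the neutral carrier Slc1a5 (-0.45) fell too. In serine synthesis Psat1 stood at 449.9, 528 and 513 CPM in the controls and 366, 369 and 381 CPM with the Krr1 siRNAs (-0.42 ± 0.08) and Psph at -0.43. The mitochondrial folate enzyme Mthfd2 stood at 319.7, 365 and 365 CPM in the controls and 231, 280.3 and 250.3 CPM with the Krr1 siRNAs (-0.46 ± 0.09), and the proline enzyme Aldh18a1 (-0.43) and the synthetases Yars (-0.46) and Aars (-0.33) fell by similar amounts. None of the 13 called members of these lists was in the core. With 1 library left out the edgeR adjusted p ran from 0.0688 without siNC for Yars to 0.16 without siNC for Aars, and those of Slc7a1, Slc38a5 and Mthfd2 reached 0.0907 without Lipo, 0.117 without siGFP and 0.085 without Lipo.

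Related genes of metabolism and stress included members of the core. Pck2, the mitochondrial enzyme that makes phosphoenolpyruvate, was the called gene of 40 glycolysis and pyruvate genes (2.5%), at 33.2, 41.0 and 42.0 CPM in the controls and 18.1, 21.1 and 24.6 CPM with the Krr1 siRNAs (-0.86 ± 0.13, edgeR adjusted p = 0.00708). Herpud1, of the degradation machinery of the endoplasmic reticulum, stood at 62.3, 68.1 and 67.0 CPM in the controls and 39.4, 41.2 and 45.4 CPM with the Krr1 siRNAs (-0.65 ± 0.08), and with the pseudokinase Trib3 (-0.42, 0.123 without siNC) was 1 of 2 lower among 40 endoplasmic reticulum stress genes (5%). Chac1, which degrades glutathione, stood at 11.6, 15.0 and 15.6 CPM in the controls and 5.24, 8.58 and 8.998 CPM with the Krr1 siRNAs (-0.88 ± 0.19, 0.123 without Lipo), and the stress protein Nupr1, outside the naming rule and chosen after its values were seen, at 7.08, 8.23 and 8.68 CPM in the controls and 2.54, 3.78 and 4.35 CPM with the Krr1 siRNAs (-1.16 ± 0.20, 0.0591 without Lipo). Pck2, Herpud1, Trib3, Chac1 and Nupr1 are known targets of ATF4, grouped here after their values were seen. How many of all known ATF4 targets were called was not counted. With C/EBP proteins, ATF4 binds a composite element.

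That element was searched in the same promoter windows as TGATGNAAN on both strands. It was present in 259 of 10191 tested genes with a promoter sequence (2.54%). Among these it was in 17 of 216 genes called lower (7.87%) and in 10 of 280 called higher (3.57%). Of 78 genes in the amino acid lists with a sequence 10 held it (12.8%), and of 9 of them called lower 2 did. Trib3 and Yars hold it after the start only. Of the called genes that hold it before the start, Apoe, Tubb3, Serpinb6c and others, among them Nr6a1, which was called higher, are named elsewhere here. The windows shown are a part of these, chosen after the matches were seen, from the amino acid and stress genes described above: Aars (chr8:111033689-111033777, plus strand), Chac1 (chr2:119351008-119351096, plus strand), Herpud1 (chr8:94386276-94386364, plus strand), Nupr1 (chr7:126625533-126625621, minus strand) and Pck2 (chr14:55540122-55540210, plus strand). Capitals mark the element, in all 5 as its reverse complement.
Aars: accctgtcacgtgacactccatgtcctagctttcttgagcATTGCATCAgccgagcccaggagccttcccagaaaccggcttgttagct
Chac1: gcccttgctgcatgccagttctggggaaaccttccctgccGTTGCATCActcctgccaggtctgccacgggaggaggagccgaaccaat
Herpud1: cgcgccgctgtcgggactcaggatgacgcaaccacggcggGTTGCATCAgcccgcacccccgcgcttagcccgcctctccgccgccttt
Nupr1: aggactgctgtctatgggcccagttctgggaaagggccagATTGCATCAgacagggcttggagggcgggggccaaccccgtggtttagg
Pck2: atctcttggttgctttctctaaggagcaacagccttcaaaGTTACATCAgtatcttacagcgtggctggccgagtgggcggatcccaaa
Its first base lies 113, 194, 113, 111 and 104 bases before the start, respectively. The bases that vary among the 5 are those the search left free. The share in genes called lower is a description of letters in these windows and not a measure of binding.

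Redox, metal and lipid genes were mixed. Of 41 NRF2, glutathione and redox genes 1 rose and 5 fell (14.6%). Nqo1, the quinone reductase that is a standard NRF2 target (chromosome 8, 107388225 to 107403205), stood at 212, 222 and 221 CPM in the controls and 101, 147 and 113 CPM with the Krr1 siRNAs (-0.86 ± 0.12, edgeR adjusted p = 0.00461), and the carbonyl reductase Cbr3 (chromosome 16, 93683219 to 93690991) at 44.3, 48.3 and 51.6 CPM in the controls and 22.7, 27.7 and 22.2 CPM with the Krr1 siRNAs (-0.99 ± 0.11, edgeR adjusted p = 0.00189). Both fell least in siKrr1 C. Txnip, an inhibitor of thioredoxin, rose, at 361, 332 and 328 CPM in the controls and 516, 499 and 446 CPM with the Krr1 siRNAs (0.52 ± 0.08), and overlaps Gm15441. The mitochondrial superoxide dismutase Sod2 (-0.42, 0.11 without Lipo) and the sulfiredoxin Srxn1 (-0.40, 0.162 without siGFP) were lower. Of 27 metal and iron genes 4 rose and 3 fell (25.9%). The metalloreductases Steap2 (29.8, 29.6 and 35.1 CPM in the controls and 50.2, 43.5 and 50.5 CPM with the Krr1 siRNAs; 0.61 ± 0.10) and Steap1 (0.50), the zinc and iron importer Slc39a14 (107, 117 and 119 CPM in the controls and 204, 144 and 169.7 CPM with the Krr1 siRNAs; 0.59 ± 0.11) and the iron-sensing aconitase Aco1 (0.39) rose, while metallothionein Mt1 (139.9, 150.4 and 149.9 CPM in the controls and 89.7, 111 and 108 CPM with the Krr1 siRNAs; -0.51 ± 0.09), the ferritin light chain Ftl1 (-0.49) and the metal exporter of macrophages Slc11a1 (-1.48) fell. In the fits without 1 library these reached 0.0646 without siGFP, 0.0932 without siGFP, 0.0886 without siGFP, 0.113 without Lipo, 0.0628 without Lipo, 0.171 without siGFP and 0.132 without siGFP. Ftl1 has near-identical copies, so its count is uncertain.

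Of 33 lipoprotein and lipid handling genes 2 rose and 2 fell (12.1%): Lrp2 and the lipid droplet protein Plin2 (0.87, and 0.58 without siKrr1 A; 0.134 without siGFP) were higher, Apoe and the cholesterol carrier Npc2 (-0.33; 0.152 without siNC) lower. Of 41 sterol and fatty acid synthesis genes the desaturase Fads2 fell (2.44%; -0.49, 0.179 without siNC). Of 14 polyamine genes Adc rose (7.14%; 0.95, 0.0775 without siGFP), and of 94 genes of the citric acid cycle and respiratory chain Aco1 was the called one (1.06%), while 85 of the others had a 95% interval within 1.5-fold of no change.

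Among chromatin regulators the called genes were few and included members of the core. Of 19 DNA methylation enzymes and readers 1 rose and 2 fell (15.8%). Tet2, which oxidises methylcytosine (chromosome 3, 133463677 to 133545136), stood at 238, 200.2 and 236 CPM in the controls and 117, 153 and 142 CPM with the Krr1 siRNAs (-0.71 ± 0.10, edgeR adjusted p = 0.00672). Zfp57, which holds methylation at imprinted loci (chromosome 17, 37001163 to 37010729), was abundant, at 675, 662 and 676 CPM in the controls and 484, 514 and 428 CPM with the Krr1 siRNAs (-0.50 ± 0.08, edgeR adjusted p = 0.00881). The methyltransferase Dnmt3b rose by less, at 106, 93.5 and 108 CPM in the controls and 126, 129.7 and 134 CPM with the Krr1 siRNAs (0.34 ± 0.08, 0.145 without siNC). Of 64 Polycomb, BAF and NuRD genes the BAF subunit Smarcd3 fell (36.9, 36.9 and 34.2 CPM in the controls and 17.6, 25.2 and 17.7 CPM with the Krr1 siRNAs; -0.83 ± 0.13, 0.0637 without siGFP) and Mta1 rose (0.35, 0.162 without siGFP), 3.12% called. Of 41 imprinted genes 4 rose and 2 fell (14.6%). Sgce, described above, and its neighbour Peg10 (589, 415 and 436 CPM in the controls and 706, 616 and 672 CPM with the Krr1 siRNAs; 0.47 ± 0.12), the noncoding Rian (0.73, and 0.48 without siKrr1 A) and Inpp5f (0.41) rose, while the neighbours Slc22a18 (-0.92) and Phlda2 (125, 111 and 107 CPM in the controls and 52.6, 94.7 and 66.9 CPM with the Krr1 siRNAs; -0.68 ± 0.17) fell. On leaving out 1 library these reached 0.185 without Lipo, 0.114 without siGFP, 0.222 without Lipo, 0.107 without siNC and 0.173 without siGFP. Rian spans many small RNA entries whose reads cannot be told from its own.

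Lineage genes other than those of pluripotency were called in small numbers. Of 46 neuronal and neural progenitor genes 2 rose and 5 fell (15.2%), with Vax2, Islr2, Tubb3 and Stmn3 in the core. The tau gene Mapt fell from an even control level, at 26.3, 26.4 and 26.5 CPM in the controls and 5.88, 16.9 and 8.15 CPM with the Krr1 siRNAs (-1.35 ± 0.28, 0.105 without siGFP), and the progenitor filament Nes (15.1, 15.4 and 13.6 CPM in the controls and 34.2, 22.5 and 23.1 CPM with the Krr1 siRNAs; 0.85 ± 0.16, 0.076 without siGFP) and Neurod1 (1.39, 0.0639 without Lipo) rose. The neural list thus held genes in both directions, with a median log2 fold change of 0.06 and 24 of 46 members above 0. Of 29 genes used as myeloid and lymphoid markers 4 fell (13.8%), namely Lgals3, Padi4, Nfe2 (-1.02, 0.12 without Lipo) and Slc11a1, although the 3 defining blood markers summed to under 1 CPM in each library. Of 71 homeobox and forkhead genes 2 rose, among them Meis1 (1.33, 0.118 without siNC), and 2 fell, Zfhx2 (-0.79, 0.158 without siGFP) and Tgif1 (5.63%). Of 43 germline and meiosis genes 0 were called by edgeR, with Syce2 at -0.09 ± 0.10 and Stag3 at -0.02 ± 0.11. At an unadjusted p under 0.05 there were 4 higher and 3 lower, and DESeq2 called 1 higher, limma voom 0. With siKrr1 C left out, edgeR called 1 germline gene higher and 1 lower.

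Death, interferon and cell cycle genes gave single calls. Outside the p53 list 3 of 44 death genes rose and 3 fell (13.6%): Tnfrsf19 of the core, Tnfrsf12a (0.72, 0.0969 without Lipo) and the survival gene Bcl2l1 (114, 109.8 and 113 CPM in the controls and 156, 127 and 160.4 CPM with the Krr1 siRNAs; 0.40 ± 0.09, 0.119 without siNC) were higher, and the death gene Hrk (7.37, 8.51 and 7.78 CPM in the controls and 2.70, 4.45 and 4.72 CPM with the Krr1 siRNAs; -0.99 ± 0.20, 0.093 without siNC), Tnfrsf21 (-0.56, 0.0861 without Lipo) and Xaf1 (-1.39, 0.077 without siGFP) lower. Of 31 interferon-stimulated genes Bst2 rose (0.66, 0.068 without siGFP) and Xaf1, Ifitm2 (-0.41, 0.15 without siNC) and the RNA-editing enzyme Adar (-0.35, 0.161 without Lipo) fell (12.9%). Of 62 DNA replication genes Tk1 (-0.42, 0.0958 without Lipo), Rrm2 (-0.33, 0.13 without Lipo) and Pcna (-0.35, 0.15 without Lipo) fell and Orc5 rose (0.40, 0.0963 without siGFP), 6.45% called. Of 63 repair genes Ercc5 (0.61, 0.0935 without siNC) and Mgmt (0.46, 0.17 without Lipo) rose and Brca2 (-0.67, 0.141 without Lipo) and Mdc1 (-0.33, 0.18 without Lipo) fell (6.35%). Of 46 cyclin and E2F genes E2f2 (76.4, 69.3 and 73.2 CPM in the controls and 50.8, 54.2 and 57.0 CPM with the Krr1 siRNAs; -0.43 ± 0.08, 0.0824 without siGFP) and Ccnd3 (232, 209 and 205 CPM in the controls and 109, 153 and 156 CPM with the Krr1 siRNAs; -0.63 ± 0.12, 0.0979 without siGFP) fell (4.35%). Of 59 lysosome and autophagy genes Ctsl rose (1.69%; 0.41, 0.141 without Lipo).

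Several lists besides the germline one showed no called member in the fit of all 6 libraries, and for most of their genes the interval was narrow. All 46 proteasome genes were uncalled with a 95% interval of the fold change within 1.5-fold in either direction, with the abundant Psmb4 at -0.04 ± 0.08. The same held for 53 of 57 mitosis and spindle genes (Top2a 0.18 ± 0.11, Ncapd2 -0.13 ± 0.07), 55 of 59 SR proteins and hnRNPs (Srsf1 0.11 ± 0.07, Hnrnpab -0.12 ± 0.07) and 16 of 17 genes of microRNA processing (Lin28a 0.04 ± 0.07, Trim71 0.10 ± 0.07). It held for 38 of 46 chaperones (Hsp90ab1 -0.11 ± 0.09, Cct7 -0.03 ± 0.08), 11 of 18 clock genes (Csnk1d 0.12 ± 0.08, Csnk1e 0.03 ± 0.07) and 10 of 13 genes of the Myc and Max network (Mycn 0.31 ± 0.11, Mlx -0.14 ± 0.07). With all 6 libraries these lists had 0 calls by edgeR and 0 by limma voom. At an unadjusted p under 0.05, higher and lower, there were 1 and 0 proteasome genes, 1 and 4 mitosis genes, 1 and 4 SR and hnRNP genes, 3 and 0 microRNA genes, 2 and 2 chaperones, 0 and 2 clock genes and 1 and 5 Myc network genes. DESeq2 called 1 proteasome gene and 1 chaperone higher, and 1 SR or hnRNP gene and 3 Myc network genes lower. With siKrr1 C left out, edgeR called 1 proteasome gene and 1 chaperone higher. In the same fit 1 SR or hnRNP gene, 1 clock gene and 2 Myc network genes were lower. With siKrr1 A left out, 1 Myc network gene was lower. Over all genes not called, 8866 had an interval within 1.5-fold, 8460 of them among the 10014 genes that averaged 5 CPM or more. For the rest the interval reached beyond 1.5-fold, so a change of that size was not excluded.

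By absolute level, the largest differences in mean CPM lay in a few abundant transcripts. Those given here are a part of the 10 per direction with the largest differences. Apoe, Aars, Ftl1 and Zfp57, described above, and pluripotency genes such as Zfp42 fell by more CPM than Itpk1 below. Rn45s, the precursor of ribosomal RNA and the remainder left by depletion, stood at 11175, 8500.1 and 7098 CPM in the controls and 4024, 6609.9 and 3632 CPM with the Krr1 siRNAs (-0.91 ± 0.21, 0.16 without siGFP), and varied among the controls as well. Malat1, an abundant nuclear noncoding RNA, stood at 1206, 819.8 and 921 CPM in the controls and 687, 589 and 644 CPM with the Krr1 siRNAs (-0.62 ± 0.12, 0.068 without siGFP), and the inositol phosphate kinase Itpk1 at 721, 654 and 636 CPM in the controls and 474, 558 and 474 CPM with the Krr1 siRNAs (-0.42 ± 0.09, 0.104 without siGFP). On the upper side the atypical cadherin Fat1 stood at 403, 357 and 386 CPM in the controls and 727, 481 and 657 CPM with the Krr1 siRNAs (0.70 ± 0.13, 0.0677 without siGFP), the laminin receptor Bcam at 386, 362 and 371 CPM in the controls and 555, 463 and 549 CPM with the Krr1 siRNAs (0.49 ± 0.08, 0.0596 without Lipo) and the corepressor Ctbp2 at 494, 460.0 and 454 CPM in the controls and 656, 541 and 603 CPM with the Krr1 siRNAs (0.35 ± 0.08, 0.158 without Lipo). Fat1 and Bcam are both adhesion proteins.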

How the data were processed

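Only the RNA-seq counts of 3 control and 3 siKrr1 libraries were used. The deposited values are raw counts per gene symbol of uniquely aligned reads, made by the authors. Per the submitters' processing notes, STAR, HTSeq and mm10 were used; for versions, annotation and strand setting the sources used here give nothing. Summary entries that name no gene were kept out: 31.2% to 33.4% of unique alignments were on no feature and 0.187% to 0.206% ambiguous. The knockdown columns carry letters that the labels' numbers do not match, so they were assigned to the group and not to single titles.

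Genes kept by filterByExpr (14038 of 23420 symbols) were tested with the edgeR 4.0.16 quasi-likelihood test (R 4.3.3, limma 3.58.1) with TMM factors of 0.984 to 1.04, and p-values were adjusted over all of them by the Benjamini-Hochberg method, with calls under 0.05. Unadjusted p-values were under 0.05 for 2937 genes, against 702 expected by chance. The biological coefficient of variation was 11%, and the median standard error of a log2 fold change 0.119. Standard errors came from the F statistic. CPM are TMM-scaled. On simulated counts the script was tested with 200 changed genes. No pair of libraries of a condition was a duplicate (chi-square per degree of freedom 7.27 to 28.7). Alternatives were DESeq2 1.42.0, limma voom, RLE scaling, no filter, a filter at a mean of 5 CPM, and each library left out.

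The members and the 48 lists were chosen with earlier results of these data known, so lists were counted and not tested. Named genes are Krr1, up to 45 per direction called in all fits, the 10 per direction with the largest CPM difference among called genes, and up to 4 called members per list (or the 2 most abundant); further called list members were named after their values were seen. Symbols were matched to RefSeq GRCm38.p6 (92.1%), which gave coordinates and promoter sequences from 250 bases before to 50 after the start. Tested genes without a promoter sequence, and those of chromosome 18, were not scanned. Motifs were chosen after the values were seen. Some genes and 1 list are not reported here.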

Additional observations from a re-analysis of the deposited data

How the results depend on the processing

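The counts of called genes depended on the libraries and the tool. With each library left out in turn, 63 to 759 genes were higher and 51 to 539 lower, and 21 to 200 higher and 22 to 127 lower by more than 2-fold; the lowest values came with a control left out and the highest without siKrr1 C. DESeq2 called 672 higher and 533 lower, and without a filter 582 and 477 were called. Higher by more than 2-fold were 50 with limma voom, 118 without a filter and 35 with a mean of at least 5 CPM, and 22 were lower by more than 2-fold with that filter. RLE scaling gave 382 higher and 295 lower. The Krr1 log2 fold change lay between -1.34 and -1.75 with 1 library left out. Of the 674 called genes, DESeq2 also called 662 and limma voom 593. With 3 libraries per group the median standard error of 0.098 for genes at 5 CPM or more limits which small changes can be called. No paired analysis was possible because the knockdown columns carry letters and the controls carry names, so that the groups share no replicate number within the RNA assay.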

Other observations

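Gene families grouped by symbol after the values were seen add the following, as counts with no test, beside 4.8% called over all genes tested. Of 17 tested tubulins, the subunits of microtubules, 6 were called lower (35.3%). They were Tuba4a (-0.61 ± 0.09) and Tubb3, both called with any library left out, and Tuba1a (-0.40, 0.142 without siNC), Tuba3a (-0.67, 0.134 without siGFP), Tubb2a (-0.42, 0.152 without siNC) and Tubb2b (-0.47, 0.154 without Lipo), where the second value is the highest edgeR adjusted p with 1 library left out. Tuba4a stood at 285, 300.5 and 300.2 CPM in the controls and 164, 215 and 201 CPM with the Krr1 siRNAs. The most abundant member, Tubb5, was not called, at 2282, 2372 and 2252 CPM in the controls and 2018, 2076 and 1870.4 CPM with the Krr1 siRNAs (-0.21 ± 0.07).

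Of 7 parvin, PINCH and kindlin genes, adapters that link integrins to actin, 3 were higher and 1 lower (57.1%). Fermt1 stood at 2.15, 1.69 and 1.63 CPM in the controls and 7.72, 3.11 and 5.17 CPM with the Krr1 siRNAs (1.54 ± 0.30, 0.0826 without Lipo) and Parva at 3.96, 3.89 and 4.28 CPM in the controls and 10.1, 5.01 and 9.13 CPM with the Krr1 siRNAs (0.99 ± 0.23, 0.136 without siGFP). Lims1 was higher by less (0.38 ± 0.09, 0.151 without Lipo), while Parvb stood at 88.7, 81.4 and 84.9 CPM in the controls and 47.0, 58.8 and 72.3 CPM with the Krr1 siRNAs (-0.52 ± 0.13, 0.171 without siGFP). Both spectrins called of 6, Sptan1 and Sptb (0.73, 0.0872 without Lipo), were higher. Of 249 solute carriers 11 were higher and 14 lower (10%), and of 332 numbered zinc finger genes 4 and 3 (2.11%). Of 5 lysophosphatidic acid receptors Lpar6 was higher and Lpar5 lower, at 4.75, 4.23 and 4.76 CPM in the controls and 2.12, 2.68 and 2.08 CPM with the Krr1 siRNAs (-0.99 ± 0.18, 0.0834 without Lipo).

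Neighbouring genes were both called in 48 of 12992 adjacent pairs of tested genes, where 4.8% of single genes were called. Of these pairs, 38 were in the same direction and 10 in opposite ones, and 9 of the 48 overlap. Whether such pairs are more frequent than chance gives was not tested. Pairs in the same direction that do not overlap include Steap2 with Steap1, Slc22a18 with Phlda2, and Zfp57 with Gabbr1.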
